A study of Mus musculus with 16 samples.

Results

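The cytosolic ribosomal protein genes are the genes for the proteins of the ribosome that works outside mitochondria. They were chosen with earlier results of these data known, by a rule on names that uses no measured value. The count table's protein-coding entries named Rpl, Rps or Rplp and a number, with at most an a or x after it, were taken. This gave 75 of 55385 genes, 46 for proteins of the large subunit and 29 for proteins of the small subunit, and all 75 passed the filter on low counts that left 17132 genes for testing. Their expression was read from polyadenylated RNA of whole hippocampus, taken when the mice were 9 months old. Each of 4 genotypes had 4 libraries, 2 from females and 2 from males. WT mice were C57BL/6J. Dp16 mice carry a duplication on chromosome 16 of the genes from Lipi to Zbtb21, which correspond to a large part of human chromosome 21. 5xFAD mice carry human APP and presenilin transgenes with familial Alzheimer mutations, expressed in neurons from the Thy1 promoter, so that amyloid is produced under a promoter that is not its own. 5xFAD-Dp16 mice carry both the duplication and the transgenes, and the WT group carries neither. The labels name no treatment, litter or preparation date. Each library is called by its group and the number in its title, and the values of a group are always given in the order WT 2, 4, 7 and 16, Dp16 3, 5, 12 and 14, 5xFAD 6, 10, 13 and 15, and 5xFAD-Dp16 1, 8, 9 and 11. The design text counts 4 mice in each group, and p-values measure the spread between these libraries.

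A ribosome is built from ribosomal RNA and a fixed set of proteins, the Rps proteins in the small subunit that decodes the mRNA and the Rpl proteins in the large subunit that joins amino acids. The proteins are needed in fixed proportions, and their mRNAs are made and translated together. Their mRNAs belong to the terminal oligopyrimidine class, which begin with a cytidine followed by a run of pyrimidines, and whose translation is controlled by the mTOR kinase complex and the RNA-binding protein Larp1. In brain, ribosomes occupy neuronal cell bodies, dendrites and all types of glia, so the level of these mRNAs in whole tissue sums over cells that differ widely in size.

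The pyrimidine run at the start of these genes is the sequence feature that they share and that the choice of members did not use. RefSeq start sites on GRCm38.p6 were found for 55 of the 75 genes, and a window of 50 bases before to 50 bases after each start was searched for an unbroken run of at least 8 bases that are C or T. The following stretches of 30 bases are printed 5′ to 3′ on the strand of the gene, with the longest such run in capitals. They show 4 of the 6 members with the smallest p in 5xFAD mice, then Rplp2 of the acidic stalk, Rps6 as the target of mTOR signalling, Rpl15 as the member with the smallest change in 5xFAD mice, and Rplp0, whose longest run is shorter than the limit.
Rps12: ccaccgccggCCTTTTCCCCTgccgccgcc
Rpl10a: aagcgctctgCCTTCTTTCCggtttccgcg
Rpl35: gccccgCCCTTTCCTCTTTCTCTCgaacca
Rps9: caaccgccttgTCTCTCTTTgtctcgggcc
Rplp2: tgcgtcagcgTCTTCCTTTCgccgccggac
Rps6: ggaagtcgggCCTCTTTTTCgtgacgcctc
Rpl15: gagaaagCCTTCTTCCTTTCCTCTggcggc
Rplp0: aggaccgcctggTTCTCCTataaaaggcac

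These stretches lie at chr10:23787182-23787211 on the minus strand for Rps12, chr17:28328572-28328601 on the plus strand for Rpl10a, chr2:39005115-39005144 on the minus strand for Rpl35 and chr7:3704024-3704053 on the plus strand for Rps9. Those of Rplp2, Rps6, Rpl15 and Rplp0 lie at chr7:141447636-141447665 (plus), chr4:86857349-86857378 (minus), chr14:18270968-18270997 (minus) and chr5:115559466-115559495 (plus). The run covers 11 bases in Rps12, 10 in Rpl10a, 18 in Rpl35, 9 in Rps9, 10 in Rplp2 and in Rps6, 17 in Rpl15 and 7 in Rplp0. In all, 48 of the 55 genes with a start site (87.3%) held a run of at least 8 bases on the transcribed strand, beside 10614 of 27025 genes of the RefSeq table (39.3%). On the opposite strand the shares were 25.5% (14 of 55 genes) and 41.1%, so the excess over all genes was seen on the transcribed strand and not on the other. The median longest run was 11 bases in the members and 7 in all genes. A run in the window is a match of letters and was not tested as a start of the mRNA. A link between run length and fold change was not tested either.

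Levels per length spanned a wide range. Mean RPKM over the 16 libraries (reads scaled by gene length and by the library total) ran from 20.7 for Rps15a to 1190 for Rplp1, a ratio of 57.8, with a median of 169. Rplp1, a protein of the stalk that recruits the elongation factors to the large subunit, stood apart at the top, followed by Rps29 at 591. The lowest RPKM belonged to Rps15a, Rpl18, Rps20 and Rpl24. The length behind the deposited RPKM is 5395 bases for Rps15a, the longest of the members, a length by which its reads are divided, and the median length was 975 bases beside 3143 for all genes tested. Levels of single members are also uncertain because 297 table entries are named as pseudogenes of a member, some of which are near-identical copies. Reads assigned to those entries came to between 0.499% and 0.621% of the members' own counts in every library, and how reads that fit several places were treated is not given in the sources used here.

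**Figure D1:**
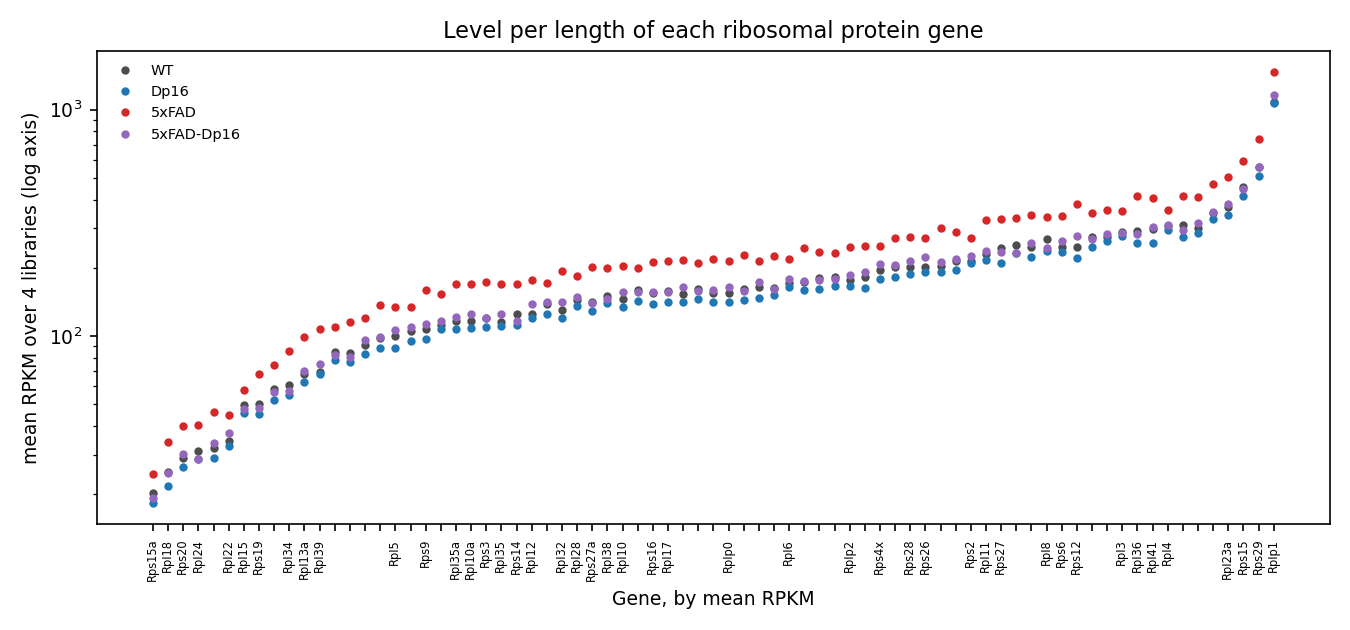
Mean RPKM over the 4 libraries of each group (logarithmic axis) for the 75 ribosomal protein genes, ordered by their mean over all libraries, with symbols for members named in the text. The 5xFAD point is the highest of the 4 for every gene, from Rps15a with a mean of 20.7 to Rplp1 with 1190.

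Libraries differed in depth, in tissue content and in their balance of short and long transcripts. Gene counts summed to between 16922937 and 25308693 per library, no member had fewer than 365 reads in any library, and mitochondrial transcripts took 4.96% to 6.87% of counts. Summed over a list of 21 thalamus markers, the mean log2 ratio to the WT mean lay between 0.94 and 1.63 in WT 4, Dp16 14, 5xFAD 6, 13 and 15 and 5xFAD-Dp16 1, and between -0.61 and -0.31 in the other 10 libraries, so that 3 of 4 5xFAD libraries carried high thalamus RNA and 1 of 4 did in each other group. The 16 hippocampal identity genes gave -0.51, -0.17, -0.37 and -1.31 in the 5xFAD libraries, the lowest in 5xFAD 15, and between -0.65 and 0.24 in the other 12. The slope of each library's log2 ratios to WT on gene length, over genes outside the family, was -0.16, -0.061, -0.030 and -0.13 log2 per doubling of length in the 5xFAD libraries and between -0.042 and 0.034 in the other 12. Mean log2 ratios of 10 nuclear long noncoding RNAs were -0.35, -0.43, -0.39 and 0.17 in the Dp16 libraries. They lay between -0.25 and 0.39 in the other 12. Those of 15 choroid plexus markers were -3.45, -1.14, -4.05 and -3.38 in the Dp16 libraries and between -3.97 and 1.67 in the other 12. A link of either list with the members' level was not tested. In whole tissue, fewer cells of a type and less RNA per cell cannot be told apart.

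The family took the largest share of RNA in 5xFAD mice. Its 75 genes held 1.19%, 1.28%, 1.24% and 1.37% of all counts in the WT libraries and 2.02%, 1.53%, 1.47% and 1.83% in the 5xFAD libraries. The 2 sets of 4 did not overlap, and the 5xFAD libraries differed more among themselves than the WT libraries did. The means were 1.27% ± 0.0762 in WT and 1.71% ± 0.259 in 5xFAD (SD, n = 4), and the shares of the 4 Dp16 libraries were 1.14%, 1.13%, 1.1% and 1.33%. The 5xFAD-Dp16 libraries held 1.31%, 1.26%, 1.28% and 1.35%, a spread within that of WT. No 5xFAD-Dp16 library reached the lowest 5xFAD library. Leaving out mitochondrial counts, which vary between libraries, gave 1.28% to 1.45% in WT, 1.56% to 2.14% in 5xFAD and 1.33% to 1.44% in 5xFAD-Dp16.

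**Figure D2:**
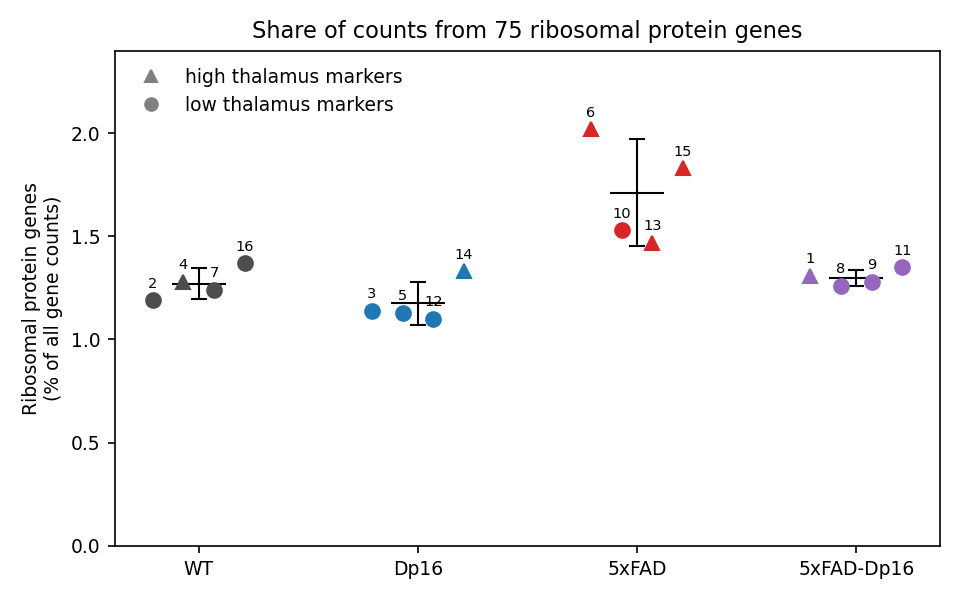
Share of all gene counts taken by the 75 ribosomal protein genes (percent, axis from 0) in each of the 16 libraries, numbered as in the text. Bars are the mean and SD of 4 libraries, and triangles mark the 6 libraries with high thalamus markers. The 4 5xFAD libraries lie between 1.47% and 2.02%, above the 12 others.

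Ribosomal protein genes were higher in 5xFAD than in WT hippocampus across both subunits. All 75 genes had a positive fold change, with a median of 0.36 on the log2 scale (1.28-fold) beside 0.027 over all genes tested, and 48 of them rose at an adjusted p below 0.05 (64.0%) with none lower. Of all 17132 genes, 7.26% were called in this comparison and 5.31% were called higher. The 48 were 32 of 46 large-subunit genes and 16 of 29 small-subunit genes, and the medians of the subunits were close, at 0.35 and 0.36. Changes were small and ran from 0.13 for Rpl15 to 0.54 for Rpl39, with the middle 50% of members between 0.30 and 0.42. In 49 of the 75 genes every 5xFAD library lay above every WT library, an arrangement seen in 7.62% of all genes.

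Rps12, a protein of the small subunit, had the smallest p. Its counts per library, scaled to a common library size by TMM factors (CPM), were 149, 155, 162 and 174 in the WT libraries and 279, 202, 206 and 243 in the 5xFAD libraries. All 4 5xFAD libraries stood above all WT libraries, with 5xFAD 6 the highest. The difference was 0.54 ± 0.098 (log2, SE), or 1.46-fold, with an adjusted p of 0.00256 in edgeR's quasi-likelihood test. Rpl10a, the protein that is tagged to purify ribosomes from chosen cell types in mice, had 98.3, 95.5, 92.6 and 101 CPM in WT and 159, 121, 117 and 136 CPM in 5xFAD, 1.37-fold (adjusted p = 0.00383). The groups were separate and the WT libraries lay within a narrow range. Rpl35 and Rps9 rose 1.39-fold (adjusted p = 0.00466) and 1.41-fold (adjusted p = 0.00723). The runs printed above are 18 bases long for Rpl35 and 9 for Rps9, and run length was not compared with the rise.

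The 3 proteins of the acidic stalk, which recruits the elongation factors, rose to similar degrees. Rplp0, its base, had 212, 199, 216 and 220 CPM in WT and 331, 260, 262 and 261 CPM in 5xFAD. The last 3 of these 5xFAD values were nearly equal and 5xFAD 6 stood apart above them. The rise was 0.40 ± 0.079 (log2, SE; adjusted p = 0.0059). Rplp1 had 502, 508, 569 and 595 CPM in WT and 799, 702, 629 and 644 CPM in 5xFAD, 1.28-fold (adjusted p = 0.0247). Rplp2 had 162, 177, 205 and 201 CPM in WT and 294, 240, 224 and 235 CPM in 5xFAD, 1.33-fold (adjusted p = 0.0159). For each of the 3 proteins the 2 groups did not overlap.

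Members that carry signalling or disease roles followed the same pattern with varying support. Rps6, the substrate of the S6 kinases downstream of mTOR, had 218, 226, 204 and 223 CPM in WT and 333, 256, 253 and 289 CPM in 5xFAD and rose 1.3-fold (adjusted p = 0.0239). Rpl5 and Rpl11, which escort a ribosomal RNA into the large subunit and can bind Mdm2 to stabilise p53, rose 1.27-fold (adjusted p = 0.0299) and 1.33-fold (adjusted p = 0.0125). Rpl10, an X-linked protein that joins the large subunit late in its assembly, rose 1.31-fold (adjusted p = 0.0143). Rps27a, which is made as a fusion with ubiquitin, rose 1.34-fold (adjusted p = 0.0424), and Rps3, at the entry of the mRNA channel, 1.36-fold (adjusted p = 0.0233). These 6 genes passed the test. Rps19 and Rps14, whose human counterparts are affected in inherited or acquired anaemias, had 1.28-fold values each that missed the threshold (adjusted p = 0.0603 and 0.059). Rps4x, whose human counterpart has a copy on the Y chromosome, had 1.22 (adjusted p = 0.0532), and Rpl38, known for its part in the translation of Hox mRNAs in embryos, 1.25 (adjusted p = 0.0815).

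The largest fold change was that of Rpl39 and the smallest that of Rpl15. Rpl39, a small protein of the exit tunnel, had 34.5, 42.1, 42.4 and 51.7 CPM in WT and 77.3, 60.5, 50 and 60.7 CPM in 5xFAD. The lowest 5xFAD library lay below the highest WT library, and the rise was 0.54 ± 0.13 (log2, SE; adjusted p = 0.0196). Rpl4, which lines the same tunnel, had 474, 447, 465 and 509 CPM in WT and 547, 570, 489 and 514 CPM in 5xFAD, a difference of 0.16 ± 0.074 that was not called (adjusted p = 0.185). Rpl3, next to the catalytic centre, gave 0.23 ± 0.084 (adjusted p = 0.108). Rpl15 had the smallest difference of all members, 0.13 ± 0.086 (adjusted p = 0.358), with 115, 103, 113 and 117 CPM in WT and 142, 109, 111 and 129 CPM in 5xFAD. Its groups overlapped. Rps2 and Rps15a, with 1.2-fold and 1.13-fold values, were not called either (adjusted p = 0.13 and 0.208). The members with the shortest proteins included Rpl41, which rose 1.29-fold (adjusted p = 0.018), and Rps29, at 1.25-fold without a call (adjusted p = 0.078).

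**Figure D3:**
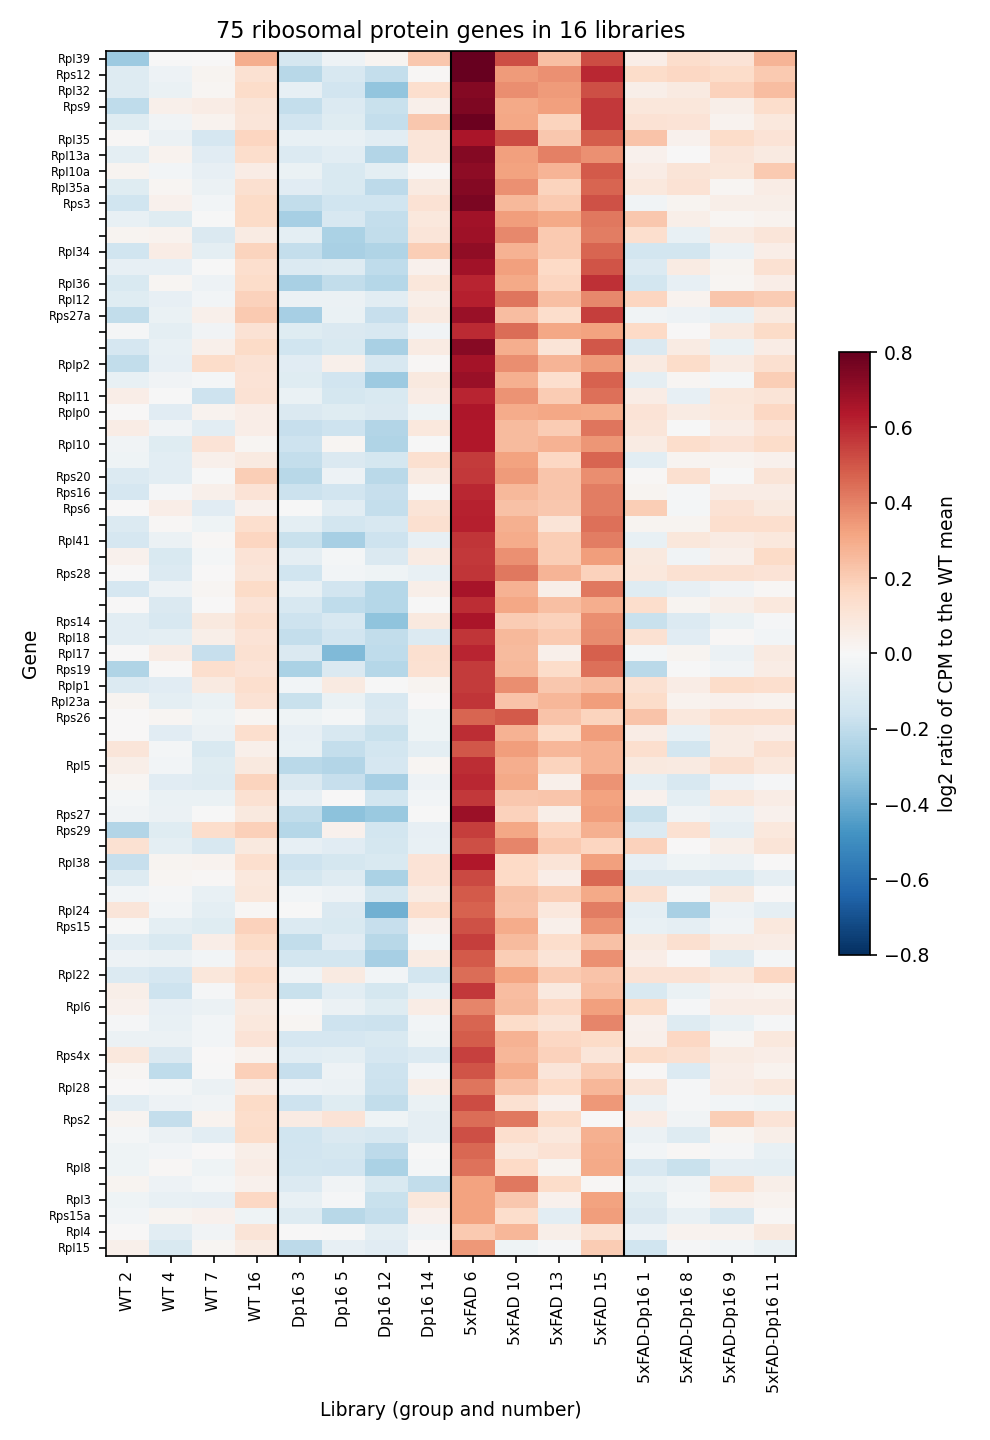
Log2 ratio of CPM to the WT mean for the 75 ribosomal protein genes (vertical, ordered by fold change in 5xFAD against WT, with symbols for members named in the text) in the 16 libraries (horizontal, black lines between groups). The 5xFAD columns are red for nearly all genes, most of all 5xFAD 6, which is the highest of the 16 libraries for 71 of 75 genes. The 5xFAD-Dp16 columns are pale and the columns Dp16 3, 5 and 12 mostly blue.

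The number of calls in 5xFAD depended on which libraries and which estimate of spread were used, while the direction of all 75 genes did not in the following fits except where given. It fell to 14 without WT 2, 22 without WT 4, 20 without WT 7 and 15 without 5xFAD 6. The share of all genes called higher fell too, from 5.31% to 3.02%, 4.14%, 3.59% and 3.34%. In all, 11 of the 48 calls (among them Rpl10a, Rpl12, Rpl13a, Rpl32, Rpl35, Rplp0, Rps12, Rps26, Rps28 and Rps9) held in each of the 8 fits that left out a WT or 5xFAD library. With only the WT and 5xFAD libraries in the edgeR fit no member was called, at a smallest adjusted p of 0.052, with 68 at an unadjusted p below 0.05, and 2.97% of all genes were called higher. DESeq2 on all 16 libraries called 60 members, beside 6.66% of all genes called higher.

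Leaving out the 6 libraries of high thalamus markers left 5xFAD 10 as the only 5xFAD library, which was then assumed to vary like the other groups. In that fit 74 of 75 members were positive, the median was 0.24 and 2 members were called, among them Rps26 (0.49, adjusted p = 0.0093), beside 1.57% of all genes called higher. With the thalamus score as a covariate over all 16 libraries the median was 0.33 and 46 members were called, beside 4.8% of all genes called higher.

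The members' differences were smaller once a trend with gene length was removed, and all stayed positive. Among other genes with a mean log2 CPM of at least 5, the median change in 5xFAD was 0.18 for 127 genes under 1000 bases, 0.089 for 704 genes from 1000 to 2000 bases, -0.036 for 1945 genes up to 4000 bases and -0.18 for 3100 longer genes. Short transcripts as a class were thus higher and long transcripts lower in these libraries. The members did not follow that order among themselves, with medians of 0.35 in 23 genes under 800 bases, 0.36 in 28 genes from 800 to 1200 bases and 0.36 in 24 longer genes. Length here is the value behind the deposited RPKM, such as 5395 bases for Rps15a, and not a measured mRNA length. These bins therefore cannot show how the members are ordered by mRNA length, which was not tested. Across the 75 members, Spearman's rho of the fold change was -0.12 with length and -0.14 with mean RPKM, given as a description over genes that share the same libraries. After the trend with length over other genes was taken out of each library, 75 of 75 members were still positive, with a median of 0.16, and 11 were called higher, beside 4.09% of all genes. Among these were Rps12, Rps9, Rpl18, Rpl10a, Rps20, Rpl32, Rplp0, Rpl35, Rpl12 and Rpl13a, and all 11 were among the 48.

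Library by library, the mean log2 ratio of the 75 genes to the WT mean was 0.58, 0.29, 0.17 and 0.36 in 5xFAD and became 0.29, 0.16, 0.091 and 0.12 without the length trend. In the WT libraries it was -0.049, -0.049, -0.017 and 0.11, and became 0.013, -0.047, -0.012 and 0.045. The 4 5xFAD libraries stayed above the WT libraries on this scale, with 5xFAD 6 again the highest. The order of the 5xFAD libraries in the family's level, 6, 15, 10 and 13, was also their order in the steepness of the length slope. The part of transcript length balance in the result beyond this adjustment was not tested.

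**Figure D4:**
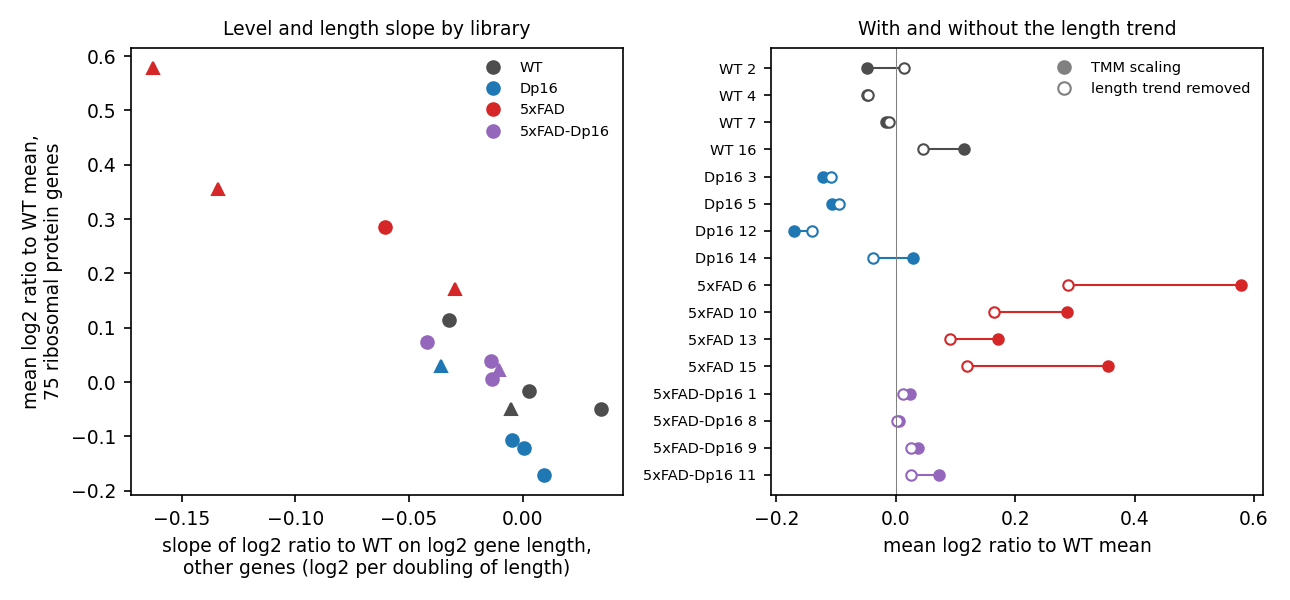
Left, mean log2 ratio of the 75 ribosomal protein genes to the WT mean against the slope of log2 ratios on gene length over other genes (log2 per doubling of length), 1 point per library, with triangles for the 6 libraries of high thalamus markers. Right, the same mean with TMM scaling (filled) and with the length trend removed (open). The 5xFAD libraries 6, 15 and 10 have the steepest slopes of the 16, and the means of the 4 5xFAD libraries fall from a range of 0.17 to 0.58 to a range of 0.091 to 0.29.

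Markers of other cell content also differed in the 5xFAD libraries. All 21 microglia markers rose in 5xFAD against WT, 5 of 15 astrocyte markers rose, 4 of 18 excitatory neuron markers fell, and none of 16 oligodendrocyte markers was called by edgeR, with 7 at an unadjusted p below 0.05. Scores of the 21 microglia markers were 2.78, 2.41, 2.48 and 1.84 above the WT mean in 5xFAD and 2.25, 1.88, 1.94 and 2.14 in 5xFAD-Dp16, so microglial RNA was in excess in both transgenic groups. In 5xFAD-Dp16 against 5xFAD the median of the microglia markers was -0.40, with none called by edgeR and 11 of 21 at an unadjusted p below 0.05. Scores of the 15 astrocyte markers were 0.57, 0.29, 0.51 and 0.30 in 5xFAD and 0.33, 0.10, 0.19 and 0.19 in 5xFAD-Dp16, where their median against 5xFAD was -0.25, with none called and 6 at an unadjusted p below 0.05. Both lists were thus lower in the double mutants than in 5xFAD by their medians, as the members were. Scores of 18 excitatory neuron markers were -0.58, -0.089, -0.28 and -1.15 in 5xFAD and -0.24, -0.022, 0.048 and -0.028 in 5xFAD-Dp16. Those of 16 oligodendrocyte markers were 0.68, -0.40, 0.35 and 1.01 in 5xFAD. 5xFAD 10 had low thalamus and oligodendrocyte markers and a score of excitatory markers within the WT range of -0.22 to 0.17. Its microglia and astrocyte scores, 2.41 and 0.29, lay above those of the WT libraries. Its length slope of -0.061 lay below the WT range of -0.032 to 0.034. The family's mean log2 ratio in this library was 0.29, and a single library cannot separate these differences. The part of cell type content in the members' level was not tested.

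Adding the Dp16 duplication to 5xFAD was accompanied by lower values for the whole family, without a call in the main test. This comparison uses the same 4 5xFAD libraries as the comparison with WT, so the values of the 2 are not independent. All 75 fold changes of 5xFAD-Dp16 against 5xFAD were negative, with a median of -0.32 (0.8-fold) beside -0.030 over all genes, and the members ranged from -0.50 for Rpl34 to -0.14 for Rpl4. No member was called by edgeR, where the smallest adjusted p was 0.0721 for Rpl36, 73 members had an unadjusted p below 0.05 and 0.304% of all genes were called. DESeq2 called 47 of the 75 lower, beside 2.21% of the genes it tested. In 59 members every 5xFAD-Dp16 library lay below every 5xFAD library, an arrangement seen in 3.89% of all genes. Without 5xFAD 10, the only 5xFAD library with low thalamus markers, edgeR called 54 members lower, beside 4.23% of all genes. Without 5xFAD 13 it called 14, beside 0.385%. The median was -0.23 without 5xFAD 6. It was also -0.23 without the 6 libraries of high thalamus markers, a fit that left 5xFAD 10 as the only 5xFAD library.

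Rpl36, a short protein of the large subunit, had 171, 138, 126 and 168 CPM in 5xFAD and 101, 107, 113 and 116 CPM in 5xFAD-Dp16. The 2 groups were separate, and the difference was -0.47 ± 0.10 (log2, SE). Its WT libraries had 103, 113, 109 and 124 CPM, in the same range as the double mutants. Rps3 had 224, 232, 236 and 236 CPM in 5xFAD-Dp16, which lay close together, beside 385, 274, 265 and 326 CPM in 5xFAD, a difference of -0.43 ± 0.11 (adjusted p = 0.10). Rps12 had 177, 179, 177 and 185 CPM in 5xFAD-Dp16, above all 4 WT libraries (149 to 174 CPM) and below all 4 5xFAD libraries. With the length trend removed the family's median in this comparison was -0.15, with 1 of 75 members positive.

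Dp16 alone showed no called change of the family. In Dp16 against WT, 72 of 75 fold changes were negative with a median of -0.10 (0.935-fold), from -0.20 for Rps27 to 0.014 for Rplp1. No member passed the edgeR test, DESeq2 called none, none had an unadjusted p below 0.05, and the smallest adjusted p was 0.894 (Rpl18), beside 0.228% of all genes called. After the 6 libraries with high thalamus markers were left out, all 75 fold changes were negative with a median of -0.17, 44 members had an unadjusted p below 0.05 and the smallest adjusted p was 0.112, again with none called by edgeR. The median was -0.056 without WT 16. Rpl41 gave -0.17 ± 0.088 (adjusted p = 0.904), with 188, 177, 190 and 203 CPM in Dp16 and 194, 206, 214 and 240 CPM in WT. The libraries of the 2 groups overlapped for Rpl41. The family's mean log2 ratio was -0.12, -0.11, -0.17 and 0.029 in the 4 Dp16 libraries, and the library above 0, Dp16 14, was the one with high thalamus markers.

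The 2 members on chromosome 16 do not lie in the duplicated segment. Rpl35a at chr16:33056453-33060189 and Rpl24 at chr16:55966275-55971435 both lie before Lipi, which starts at position 75540514 of GRCm38 in GENCODE M21. Rpl35a had 90.1, 88.5, 83.0 and 101 CPM in Dp16 and 89.9, 97.3, 93.0 and 105 CPM in WT. Rpl24, a protein of the large subunit that reaches towards the small subunit, had 21.1, 19.5, 16.2 and 23.2 CPM in Dp16 and 22.6, 20.8, 20.0 and 21.3 CPM in WT. Neither differed between the groups beyond the spread of the libraries, with fold changes of 0.942 and 0.943 (adjusted p = 0.997 for both).

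On the Dp16 background the transgenes were accompanied by smaller differences. In 5xFAD-Dp16 against Dp16, 73 of 75 members were positive with a median of 0.13 (1.09-fold), and none was called by edgeR or DESeq2, with 14 at an unadjusted p below 0.05 in edgeR. Of all genes, 3.02% were called in this comparison. The highest was Rps12 at 0.30 ± 0.098 (adjusted p = 0.159), with 137, 146, 140 and 161 CPM in Dp16 and 177, 179, 177 and 185 CPM in 5xFAD-Dp16. In 20 members every 5xFAD-Dp16 library lay above every Dp16 library, as in 6.56% of all genes. Rps26 had 135, 137, 128 and 135 CPM in Dp16 and 162, 147, 152 and 152 CPM in 5xFAD-Dp16, separate groups with a difference of 0.20 ± 0.076 (adjusted p = 0.298). Rpl5 gave 0.23 ± 0.090 (adjusted p = 0.308). Rps12 alone was called with the length trend removed (adjusted p = 0.0191), in the fit on these 2 groups (adjusted p = 0.0497) and without 5xFAD 6 (adjusted p = 0.0488). In each of these fits about as many of all genes were called as in the main fit, where the share was 3.02%. A single call among 75 members is not above that share. Rps12, Rpl5, Rpl32 and Rplp0 were called once the 6 libraries with high thalamus markers were left out, beside 2.76% of all genes called higher.

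The double mutants had values near those of WT. In 5xFAD-Dp16 against WT the median was 0.043, with 49 of 75 members positive, and values ran from -0.11 for Rpl8 to 0.17 for Rps12. The median was 0.076 without WT 16 and 0.021 without 5xFAD-Dp16 11. No member was called by edgeR or DESeq2 and none had an unadjusted p below 0.05, while 3.2% of all genes were called. Rpl12, among the 3 members of smallest p here together with Rps12 and Rps26, had 146, 149, 154 and 177 CPM in WT and 176, 159, 182 and 180 CPM in 5xFAD-Dp16, a difference of 0.16 ± 0.088 (adjusted p = 0.667). Its groups overlapped. The difference between the 5xFAD effect on the Dp16 and on the WT background was negative for all 75 members, with a median of -0.23. Neither edgeR nor DESeq2 called a member, 14 members had an unadjusted p below 0.05 in edgeR, and the smallest adjusted p was 0.718 for Rpl13a. Across all 17132 genes the share called for this difference was 0%, so a difference of the 5xFAD effect between the backgrounds was not shown. Its median was -0.042 with the length trend removed and -0.059 after the 6 libraries with high thalamus markers were left out. Females and males did not differ in any member by edgeR or DESeq2, with a median of -0.021, none at an unadjusted p below 0.05 and 0.0642% of all genes called.

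**Figure D5:**
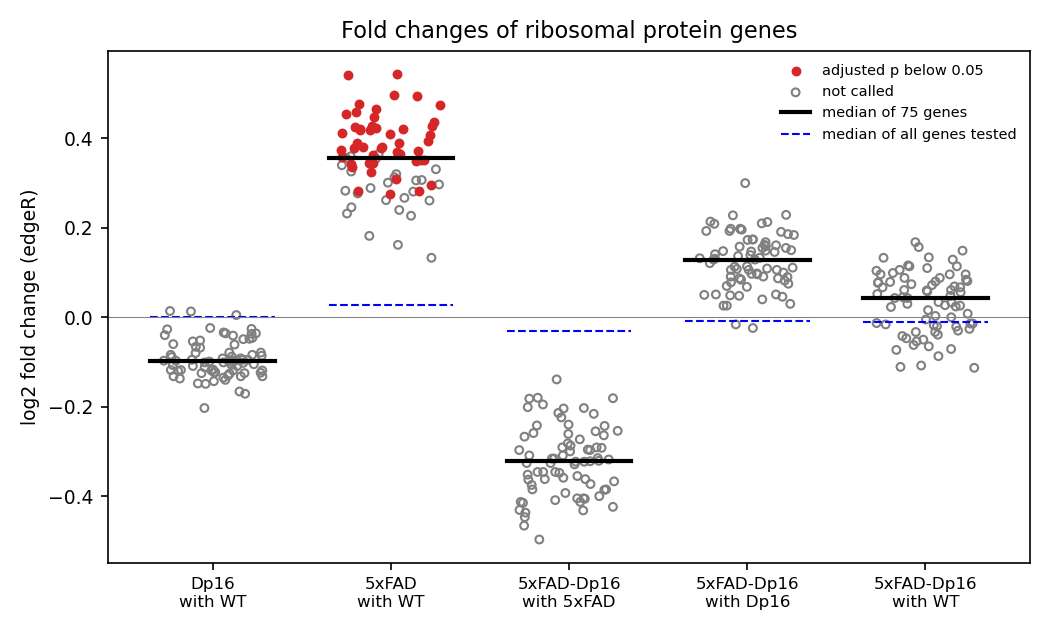
Log2 fold changes from edgeR of the 75 ribosomal protein genes in 5 comparisons, 1 point per gene, filled where the adjusted p was below 0.05. Black lines are the medians of the 75 genes, 0.36 for 5xFAD with WT and -0.32 for 5xFAD-Dp16 with 5xFAD, and dashed lines the medians of all genes tested. Filled points occur for 5xFAD with WT only.

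Within the family the genes moved as a block from library to library. Over the 16 libraries the first principal component of the 75 genes held 89.0% of their variance and the next 3.51%, and the median correlation between 2 members was 0.90. The correlation of a member with the mean of the others ran from 0.67 for Rps2 to 0.98 for Rps16, as a description over libraries that share their depth and composition. Library 5xFAD 6 was the highest of the 16 for 71 members, 5xFAD 10 for 3 and 5xFAD 15 for 1. The lowest was Dp16 12 for 35 members, and 5xFAD 13 was the lowest of the 5xFAD libraries for 59. The make-up of the pool changed little: Rplp1 took 3.97% to 4.76% of the members' counts across libraries and Rps15 2.05% to 2.36%. Rpl4, among the members that changed least, took 3.58% to 3.99% in the WT and Dp16 libraries and 2.9%, 3.65%, 3.41% and 3.17% in the 5xFAD libraries. Within groups, Rpl39, Rpl34 and Rpl17 varied most between libraries on the log2 scale, and Rpl4, Rpl6 and Rpl28 least.

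The genes outside the family whose log2 CPM over the 16 libraries was most like the family's mean were Fau (r = 0.98), Rack1 (0.98), Eef1b2 (0.97), Rpsa (0.95) and S100a16 (0.94). Fau, Rack1 and Rpsa encode further ribosomal or ribosome-bound proteins whose symbols fall outside the naming rule, Eef1b2 is a subunit of an elongation factor, and S100a16 is a calcium-binding protein. Of 12 tested ribosomal proteins and paralogs outside the rule, 4 rose in 5xFAD against WT and none fell, with a median of 0.31. Among these were Fau, which is made as a fusion with a ubiquitin-like protein, at 0.49 (adjusted p = 0.00503), Rack1, a scaffold on the small subunit, at 0.39 (adjusted p = 0.0186), and Rpsa at 0.31 (adjusted p = 0.0322). Rps3a1 gave 0.29 (adjusted p = 0.0521) and the paralog Rpl22l1 0.24 (adjusted p = 0.31). Its main form Rpl22, a member, rose 1.23-fold (adjusted p = 0.0341).

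Few other genes of the translation machinery were called in 5xFAD. Of 38 translation factors, 1 rose, Tpt1 at 0.45 (adjusted p = 0.0216 by edgeR). The list's median was 0.11, with 30 factors positive and 11 at an unadjusted p below 0.05. Eef1a1 (0.20), Eef2 (0.065) and Eif4b (-0.07) were not called. Of 69 genes for ribosome assembly, none was called by edgeR, 14 had an unadjusted p below 0.05 and the median was 0.036. Of 30 genes of mTOR signalling and regulators of these mRNAs, Lamtor1, which anchors the complex to lysosomes, rose (0.29), and Mtor (-0.35) and Rictor (-0.40), which have long transcripts, fell. Of 14 host genes of small nucleolar RNAs, Snhg15 (1.22) and Gas5 (0.25) rose, with a median of 0.48. Gas5 had 73.6, 73.9, 69.4 and 81.0 CPM in WT and 93.2, 87.6, 82.8 and 89.6 CPM in 5xFAD, separate groups with a small step. The 49 nuclear genes of oxidative phosphorylation, which like the members have short and abundant mRNAs, had a median of 0.19, with none called by edgeR and 20 at an unadjusted p below 0.05. In 5xFAD-Dp16 against 5xFAD their median was -0.30, with none called and 46 of 49 at an unadjusted p below 0.05, beside -0.32 and 73 of 75 for the ribosomal protein genes.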

How the data were processed

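Hippocampal polyadenylated RNA of 16 mice was sequenced as strand-specific paired reads, per the labels' protocols. Per the submitters' processing notes, the tools included HTSeq 0.6.1 and HISAT2 2.1.0, with SAMtools 1.5, FastQC 0.11.5 and bcl2fastq, on the build GRCm38, and the role and settings of each tool are not given in the sources used here. The authors deposited raw read counts per gene, which were used for every main test. The RPKM values deposited by the authors equalled the count divided by the library total and by 1 length per gene, within a relative tolerance of 1e-06 for 32180 genes with counts, and gave lengths, levels and 1 alternative.

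Counts were fitted with edgeR 4.0.16 in R 4.3.3: genes kept by filterByExpr with a minimum count of 10, TMM scaling (factors 0.9446 to 1.13), and a robust quasi-likelihood model of 4 groups and sex over all 16 libraries. P-values were adjusted by Benjamini-Hochberg over 17132 genes, and a gene with an adjusted p below 0.05 was called. The scripts were tested on simulated data. Replicate numbers are unique to a library and pair nothing. Positions came from GENCODE M21 (55144 of 55385 genes matched by identifier), start sequences from RefSeq. Gene lists were scored as the mean log2 ratio of CPM to the WT mean. The length trend was a smooth curve of each library's log2 deviations on log2 gene length over genes outside the family, entered as an offset. DESeq2 1.42.0, limma 3.58.1 on log2 of RPKM plus 0.1, other scaling, other filters, left-out libraries and covariates served as alternatives.

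The members and the gene lists were chosen with earlier results of these data known. Members named are, per comparison, up to 6 called in each direction by smallest p or else the 3 of smallest p, the 4 highest and 4 lowest by RPKM, the 3 most and 3 least variable within groups, those on chromosome 16, and a set of members with known roles; other members named were chosen after their values were seen. Values of some genes are not reported here.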

Additional observations from a re-analysis of the deposited data

Results flagged for a closer look

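In 10 of 168 checks, each over the 4 libraries of a group for a member named in the text or for the family's share or mean, 1 library stood apart from the other 3. Chance alone gives this in about 1 of 20 such groups, and no cause was tested. Dp16 14, which has high thalamus markers, was above the other Dp16 libraries for Rpl34 (76.5 CPM, next 58.5), Rpl35 (117 CPM, next 105), Rpl36 (119 CPM, next 97.7), Rpl38 (88.8 CPM, next 75.5) and Rps3 (248 CPM, next 205). Dp16 12 was below the others for Rps26 (128 CPM, next 135). 5xFAD 6 was above the other 5xFAD libraries for Rplp0 (331 CPM, next 262) and Rpl13a (128 CPM, next 102). WT 16 was above the other WT libraries for Rpl3 (439 CPM, next 383). 5xFAD-Dp16 1 was above its group for Rpl23a (231 CPM, next 214).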

How the results depend on the processing

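Of 400 values of the 14 counts and medians of the family under 29 alternatives, 375 stayed close to the main value (counts within 1.5 times, medians within the SD between libraries). Counts that stayed at 0 were taken as close, and the main count was 0 in every comparison except 5xFAD against WT. That SD was 0.104, wider than the main medians of Dp16 against WT (-0.097), 5xFAD-Dp16 against WT (0.043) and females against males (-0.021). Much of this closeness was therefore set by the rule. Medians kept their sign in every setting for 6 of the 7 comparisons, and that of females against males lay between -0.063 and 0.006. Of 1731 values of named members, 1471 kept their side of the threshold, 196 lost a call, 64 gained a call and 0 changed direction. These values cover every named member in 5xFAD against WT but only the 3 of smallest p in each other comparison. Such a choice makes a change of direction unlikely. Of 75 interaction values, 0 were positive in the main fit, 17 with the length trend removed and 14 without the high-thalamus libraries. In 5xFAD against WT, 1 of 75 was negative in the last of these fits. In 5xFAD against WT the 48 calls became 11 with the length trend removed, 12 with length and GC trends removed (chosen after seeing the data), 2 without the 6 libraries of high thalamus markers, and 0 with only the 2 groups in the fit. The median of 0.36 became 0.16, 0.17 and 0.24 in the first 3 of these settings. With 1 library left out the calls ranged from 14 to 67 and the median from 0.27 to 0.41. The number of all genes called was also lower with both trends removed and without WT 2, and higher without 5xFAD 10 or 5xFAD 13. In 5xFAD-Dp16 against 5xFAD the 0 calls became 47 with DESeq2, 39 without the low-count filter and 0 to 54 with 1 library left out. The fits with 47, 39 and 54 calls also called more of all genes than the main fit did. The median of -0.32 became -0.15 with the length trend removed and -0.15 with both trends removed. It became -0.37 to -0.23 with 1 library left out. In 5xFAD-Dp16 against Dp16 the 0 calls became 1 with the length trend removed, 1 with both trends removed, 1 with only the 2 groups, 4 without the libraries of high thalamus markers, and 0 to 1 with 1 library left out. The median interaction of -0.23 became -0.042 with the length trend removed, -0.039 with both trends removed, -0.059 without the libraries of high thalamus markers, and -0.28 to -0.13 with 1 library left out. The cause of these changes was not tested. Fits that left out libraries also had fewer samples. The smallest count of a member in a library was 365, and counting error was not compared with the spread between mice. No paired analysis was possible because the replicate numbers are unique to each library.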
